A study of Mus musculus with 24 samples.

Results

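Monocyte and macrophage marker genes were examined in mouse acute myeloid leukaemia cells in which members of the DOT1L complex had been targeted. The 8 genes were listed by name, with earlier results of these data known: Adgre1, Adgre5, Lyz1, Lyz2, Msr1, Mertk, Cx3cr1 and Mrc1. Each matched 1 of the 43629 genes in the table of raw read counts, and 4 of the 8 (Adgre1, Adgre5, Lyz2 and Cx3cr1) held enough counts to be tested. RNA sequencing covered 24 libraries in 8 groups of 3. All groups used MLLAF9 cells, which are driven by the fusion oncogene MLL-AF9 and make Cas9, and the control differed only in its guide. The groups were a non-targeting guide (NT), a DOT1L knockout, and guides 1 and 2 for each of MLLT10, MLLT1 (also called ENL) and MLLT6 (also called AF17). Guides came in lentivirus (multiplicity of infection 0.3), puromycin at 2 ug/ml was applied for 72 hours from 48 hours after transduction, and RNA was taken on day 9. Cells were infected as a culture, and the labels name no clones. The labels list 1 guide each for NT and DOT1L, so effects particular to a guide cannot be told apart there. They also do not say whether replicates grew apart as cultures. The p-values therefore weigh differences against the spread among these samples, which may be technical.

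DOT1L is the methyltransferase of histone H3 lysine 79, and the proteins of MLLT10, MLLT1 and MLLT6 bind it or the elongation machinery around it. MLL-AF9 leukaemia cells resemble granulocyte and monocyte progenitors held back from maturing. Monocytes and macrophages are known for engulfing particles and dying cells, and most of the 8 genes encode surface receptors or secreted proteins used in that work. The genes fall into 4 roles. Adgre1 (the F4/80 antigen) and Adgre5 (CD97) are adhesion G protein-coupled receptors. Lyz1 and Lyz2 encode lysozymes, enzymes that cut bacterial cell walls. Msr1 (a class A scavenger receptor), Mrc1 (the mannose receptor CD206) and Mertk (a receptor tyrosine kinase that recognises dying cells) take up ligands or corpses and mark mature macrophages. Cx3cr1 is the fractalkine receptor of monocytes and resident macrophages.

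The lysozyme genes are near copies that lie side by side, and their sequences are shown because they bear on how reads can be assigned between them. Lyz2 (ENSMUSG00000069516) lies on chromosome 10 of mm10 from 117277331 to 117282321, and Lyz1 (ENSMUSG00000069515) from 117287797 to 117292868, both on the minus strand. In the GENCODE M21 transcripts, their coding sequences of 444 bases without the stop codon matched at 422 positions and differed at 22. Of the 1267 windows of 50 bases in the Lyz2 transcript, 195 (15.4%) also occurred in Lyz1, and a read that covers only such a window has no single place. The first 150 coding bases follow, with capitals at the bases that differ between the genes.
Lyz1: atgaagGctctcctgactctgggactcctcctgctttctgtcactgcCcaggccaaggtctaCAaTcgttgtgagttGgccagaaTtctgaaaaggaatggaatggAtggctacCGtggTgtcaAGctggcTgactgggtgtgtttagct
Lyz2: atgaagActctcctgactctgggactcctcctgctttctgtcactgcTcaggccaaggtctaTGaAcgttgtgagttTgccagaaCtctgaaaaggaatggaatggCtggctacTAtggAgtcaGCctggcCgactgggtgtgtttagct
The sequence ahead of both genes is also related. The next lines give 200 bases on the minus strand of GRCm38.p6 (the assembly that mm10 names) from the RefSeq promoter table. They are chr10:117292919-117293118 for Lyz1 and chr10:117282323-117282522 for Lyz2, and end 51 and 2 bases ahead of the GENCODE gene starts. Capitals mark bases that differ or have no partner in the alignment, which held 150 identical positions of 202 (74.3%).
Lyz1: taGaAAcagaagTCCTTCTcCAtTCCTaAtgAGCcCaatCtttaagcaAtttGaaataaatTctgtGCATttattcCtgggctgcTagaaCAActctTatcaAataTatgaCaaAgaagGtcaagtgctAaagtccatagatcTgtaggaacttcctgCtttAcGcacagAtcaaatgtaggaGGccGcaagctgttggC
Lyz2: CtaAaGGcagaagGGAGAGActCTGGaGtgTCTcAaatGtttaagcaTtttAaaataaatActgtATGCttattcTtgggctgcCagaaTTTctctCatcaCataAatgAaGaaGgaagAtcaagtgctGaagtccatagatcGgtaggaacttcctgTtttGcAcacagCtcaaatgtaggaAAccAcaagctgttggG
A site type bound by ETS factors such as PU.1 was searched as CAGGAAGT on both strands. RefSeq promoter windows of 300 bases (250 before and 50 after a start) were found for 5 of the 8 genes. Those of Lyz1, Lyz2 and Mrc1 each held 1 match, and those of Mertk and Cx3cr1 none, while 3.33% of all 32851 windows held at least 1. In the upstream lines above it reads acttcctg on the strand shown, in a stretch that Lyz1 and Lyz2 share. A looser motif of the C/EBP type, TTNNGNAA, matched the windows of the same 3 genes and 40.7% of all windows. A match describes the letters only, and no match says nothing of the factor.

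Library totals ranged from 2403044 to 7415397 counts, and the TMM scaling factors were 0.863 to 0.880 for DOT1L and 0.955 to 1.07 elsewhere. Levels below are CPM, the usual depth-normalised counts, on these scaled library sizes. The libraries least like the other replicates of their group were MLLT1 guide 1 replicate 1 and MLLT6 guide 1 replicate 3, with a mean correlation of log2 CPM to them of 0.948 and 0.953. The highest was 0.978. The mRNA of the targeted gene fell in the DOT1L knockout (log2 fold change of Dot1l -0.71 ± 0.13 SE, edgeR adjusted p = 0.000189). Mllt10 (-0.76 ± 0.21, adjusted p = 0.139) and Mllt6 (-0.90 ± 0.19, adjusted p = 0.496) did not pass in their own knockouts, and Mllt1 stood at 0.62 ± 0.22 (adjusted p = 0.148) in the MLLT1 knockout. A Cas9 cut need not lower the mRNA of its gene, so the mRNA does not check these labels, and MLLT1 below means the libraries labelled so. As labelled, the cells were leukocytes with progenitor genes. All 8 markers of the leukaemia cells were detected in each group, among them Ptprc (CD45) at 78.8 to 114 CPM and Kit at 37.4 to 90.4 CPM over all libraries. Their levels were not all steady. In the DOT1L knockout Meis1 (-2.83 ± 0.22), Hoxa9 (-2.27 ± 0.19) and Flt3 (-3.16 ± 0.36) fell and Itgam (3.0 ± 0.33) rose. These passed (largest edgeR adjusted p = 4.8e-07), beside 21.8% of all genes, and the other 4 did not. With MLLT1, Flt3 fell and Cd33 rose, beside 2.58% of all genes. None of the 8 passed with MLLT10 or MLLT6.

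The tested genes moved apart in the DOT1L knockout: Lyz2 and Adgre5 rose and Adgre1 fell. Of the 4 tested genes, 3 were called (quasi-likelihood test of edgeR over 10578 genes, Benjamini-Hochberg adjusted p under 0.05). Over all genes 21.8% were called, 11.2% higher and 10.7% lower. In the MLLT10 and MLLT1 knockouts Adgre1 alone was called, as a fall, against 0.473% and 2.58% of all genes called in those comparisons (0.236% and 1.61% lower, 0.236% and 0.974% higher). For MLLT10 these are 50 genes, and 79 with the replicate number as a block, which changed no call of a member there. In the MLLT6 knockout none of the 4 was called, nor was any gene (0% of 10578), although 727 genes had an unadjusted edgeR p under 0.05. DESeq2 also called none there, and none of the 4 members had an unadjusted p under 0.05. All 4 comparisons share the 3 control libraries, so they are not separate evidence on the control.

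**Figure D1:**
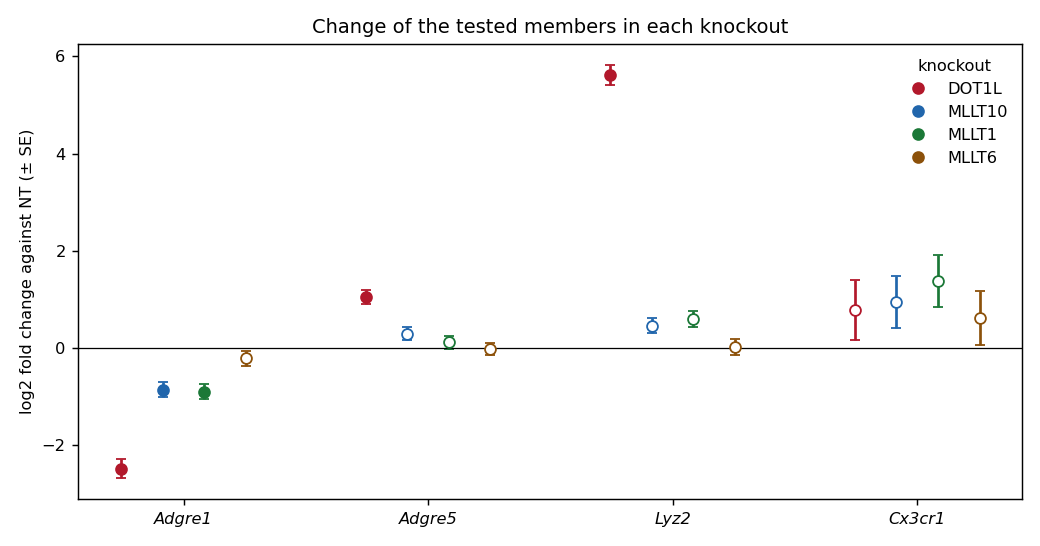
Log2 fold change against NT (y axis, ± SE) of the 4 tested genes in each knockout, with both guides averaged where there are 2. Filled points passed edgeR's adjusted p under 0.05 and open points did not. In the DOT1L knockout Adgre1 lay at -2.48, Adgre5 at 1.05 and Lyz2 at 5.62, and every Cx3cr1 point is open.

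Adgre1 (ENSMUSG00000004730, chromosome 17, 57358691 to 57483527, plus strand) gave the clearest fall. It was measured at 159, 241 and 259 CPM in the control and at 31.6, 40.9 and 44.9 CPM in the DOT1L knockout. The groups did not overlap, and the control varied most, with replicate 1 well below the other two. The mean fell from 219 ± 53.4 (SD, n = 3) to 39.1 ± 6.83 CPM (n = 3), or -2.48 ± 0.20 (SE) on the log2 scale (edgeR adjusted p = 1.84e-09). RNA of a culture cannot tell apart fewer cells of a type and less RNA per cell. As another measure of the labelled cells, the summed level of 18 neutrophil markers was taken. It rose from between 7242 and 7739 CPM in the control to between 104523 and 117397 CPM in the DOT1L libraries. Of the 18, 17 were called higher and 1, Ctsg, lower, beside 11.2% higher and 10.7% lower over all genes. The filter on low counts asked for 3.12 CPM in enough libraries. Retnlg, Chil3, Fcnb, Ltf, Mmp8 and Cxcr2 stayed below that in every control library and entered the test through knockout libraries. Outside the DOT1L knockout, Retnlg reached that level in no library and Cxcr2 in too few, so both entered through the DOT1L libraries. The filter thus favours rises in this count. The part of the neutrophil markers in the Adgre1 result was not tested. Of 10 markers of T, B and NK cells, 9 had no count in either group.

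Adgre1 was also lower in the MLLT10 and MLLT1 knockouts, by less. Guide 1 of MLLT10 gave 127, 119 and 150 CPM. Guide 2 gave 126, 111 and 98.4 CPM. All 6 lay below the lowest control library, which was close to the highest of them. Over both guides the change was -0.85 ± 0.16 on the log2 scale (edgeR adjusted p = 0.00721). This call was lost without NT replicate 2 (adjusted p = 0.115), without NT replicate 3 (0.161) and when only the groups compared were fitted (0.0622), with a range of 0.000144 to 0.161 over all alternatives. Guide 1 alone gave -0.74 ± 0.18 (adjusted p = 0.14) and guide 2 -0.97 ± 0.19 (adjusted p = 0.0168), and the call of guide 2 was also lost without either of those control libraries or without its own replicate 2 or 3 (adjusted p up to 0.181). Over all genes, guide 1 called 0.17% and guide 2 0.303%.

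Guide 1 of MLLT1 left Adgre1 at 120, 136 and 113 CPM. Guide 2 left it at 132, 90.2 and 116 CPM. Again all 6 libraries lay below the control. On the log2 scale the change was -0.90 ± 0.16 (edgeR adjusted p = 0.00184). It passed in each of the 31 alternative analyses, with adjusted p from 1.76e-05 to 0.0458. Many of these left out 1 library of a group outside the comparison, which enters only through the shared fit. Guide 1 alone gave -0.83 ± 0.19 (adjusted p = 0.0255) and guide 2 -0.96 ± 0.19 (adjusted p = 0.00828), where 1.25% and 1.22% of all genes were called. Both single-guide calls were lost without NT replicate 2 (adjusted p = 0.14 and 0.0621) or replicate 3 (0.212 and 0.0771) and when only the groups compared were fitted (0.268 and 0.148). Without any 1 of its own 3 libraries guide 1 was lost (0.0576 to 0.102), and without its replicate 2 guide 2 was lost (0.0736). Guide 1 was also lost without both libraries that stood apart (0.0621).

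In the MLLT6 knockout Adgre1 stayed within the range of the control. Guide 1 gave 206, 214 and 166 CPM and guide 2 gave 171, 183 and 197 CPM, a change of -0.21 ± 0.16 (log2, edgeR adjusted p = 0.759). For each guide of MLLT6 alone, 0% of all genes were called. Direct tests between knockouts contrast no control library. Over all genes they called 23.5% for DOT1L against MLLT10, 19.6% against MLLT1 and 29.3% against MLLT6. They called 2.68% for MLLT10 against MLLT1, 0.766% for MLLT10 against MLLT6 and 4.46% for MLLT1 against MLLT6. Adgre1 was lower in the DOT1L knockout than in the MLLT10 (-1.63 ± 0.18, adjusted p = 2.23e-07), MLLT1 (-1.58 ± 0.18, adjusted p = 3.45e-07) and MLLT6 knockouts (-2.27 ± 0.18, adjusted p = 1.27e-09). It was lower in the MLLT1 than in the MLLT6 knockout (-0.68 ± 0.13, adjusted p = 0.00238). It was also lower in the MLLT10 than in the MLLT6 knockout (-0.64 ± 0.13, adjusted p = 0.0158), a call lost without any of MLLT10 guide 1 replicate 2, guide 2 replicate 3, MLLT6 guide 1 replicate 2 or guide 2 replicate 3 (adjusted p from 0.0533 to 0.0594). MLLT10 and MLLT1 differed by 0.04 ± 0.13 (adjusted p = 0.946), which does not show that they act alike. By mean level, NT was followed by MLLT6 guides 1 and 2, then MLLT10 guide 1, MLLT1 guides 1 and 2, MLLT10 guide 2 and DOT1L. Neighbours in this order overlapped in range except MLLT6 guide 2 with MLLT10 guide 1, and MLLT10 guide 2 with DOT1L.

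**Figure D2:**
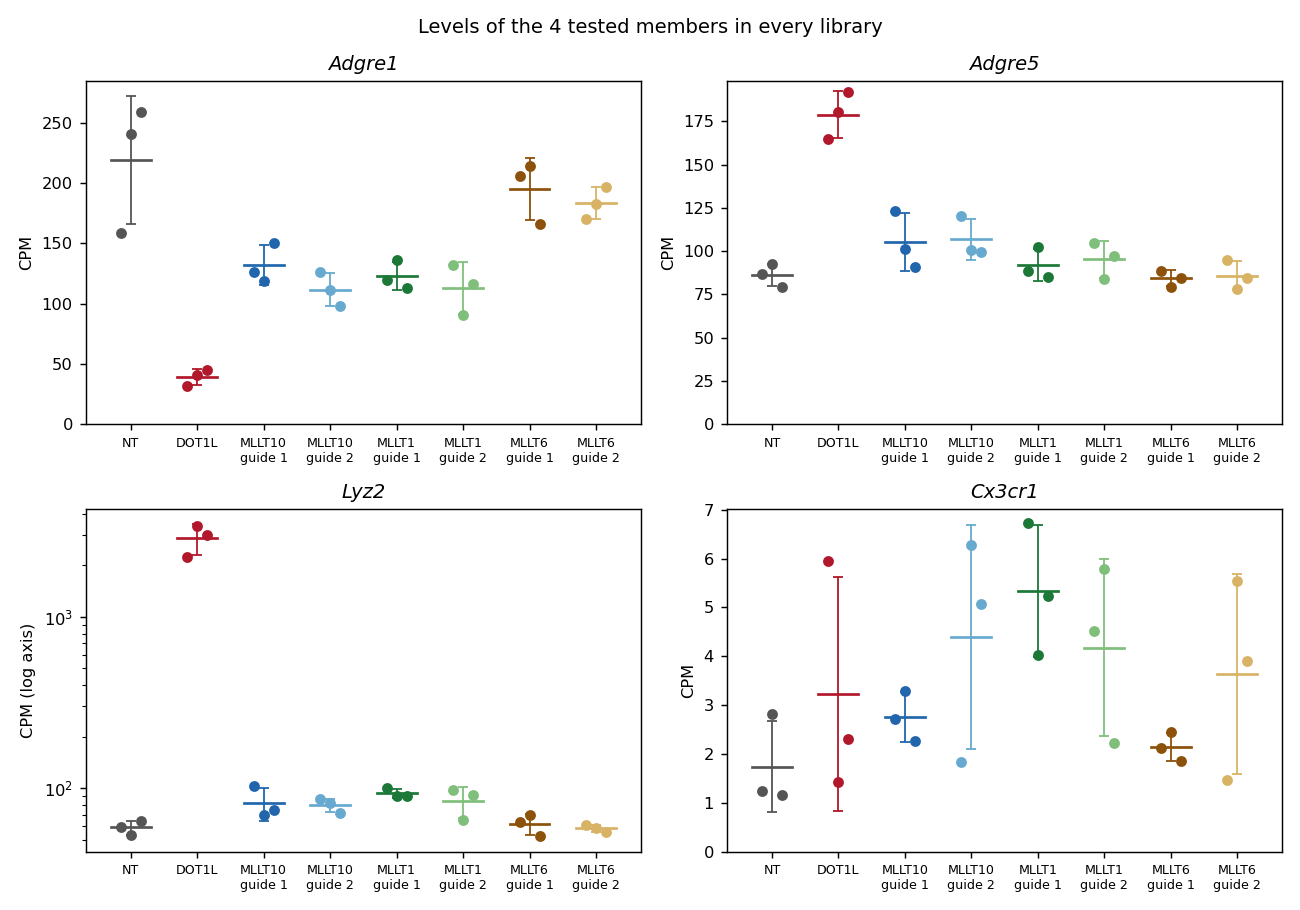
CPM of Adgre1, Adgre5, Lyz2 and Cx3cr1 (y axes, log for Lyz2) in each library of the 8 groups (x axes). Points are libraries, horizontal lines group means and bars ± SD (n = 3). The DOT1L points stand below all others for Adgre1 (31.6 to 44.9 CPM) and above all others for Adgre5 (165 to 192 CPM) and Lyz2 (2244 to 3405 CPM), while the groups of Cx3cr1 overlap.

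Adgre5 (ENSMUSG00000002885, chromosome 8, 83723251 to 83741326, minus strand), the other adhesion receptor, moved the opposite way. It was at 87.0, 92.3 and 79.3 CPM in the control and at 165, 180 and 192 CPM in the DOT1L knockout. The groups did not overlap. Its mean rose from 86.2 ± 6.51 to 179 ± 13.6 CPM, or 1.05 ± 0.15 on the log2 scale (edgeR adjusted p = 9.71e-06). It was higher in the DOT1L knockout than in the MLLT10 (0.76 ± 0.12), MLLT1 (0.94 ± 0.12) and MLLT6 knockouts (1.08 ± 0.12), with a largest edgeR adjusted p of 4.96e-05. Against the control it was not called in the other knockouts. The values were 0.30 ± 0.13 for MLLT10 (adjusted p = 0.432), 0.12 ± 0.13 for MLLT1 (0.728) and -0.02 ± 0.13 for MLLT6 (0.976), and each of these groups overlapped the control. In the order of mean levels DOT1L was first and did not overlap the next group, and all other neighbours overlapped. Exons of Adgre5 overlap those of Ddx39, an RNA helicase gene on the opposite strand, over 895 of their 3757 bases. Whether the counting used strand is unknown here, and without it reads of both genes cannot be told apart over that stretch. Ddx39 itself stood at 0.39 ± 0.23 in the DOT1L knockout (adjusted p = 0.242).

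Lyz2 showed the largest change of the 4 tested genes. It was at 58.9, 53.5 and 64.2 CPM in the control and at 2244, 3405 and 3013 CPM in the DOT1L knockout, 49.1 times the control mean. No DOT1L library came near any other library of the series, where the highest value was 102 CPM. The rise was 5.62 ± 0.21 on the log2 scale (edgeR adjusted p = 6.99e-15). The neutrophil markers described beside Adgre1 rose in the same libraries. Lyz2 is also known as a gene of neutrophils, and the part of those markers in its rise was not tested. Direct tests put the DOT1L knockout above MLLT10 by 5.15 ± 0.16, above MLLT1 by 5.02 ± 0.15 and above MLLT6 by 5.59 ± 0.16 (largest edgeR adjusted p = 1.21e-16).

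Lyz2 lay slightly above the control in the MLLT10 and MLLT1 knockouts without passing the test. Guide 1 of MLLT10 gave 102, 69.3 and 74.5 CPM and guide 2 gave 85.9, 81.5 and 71.9 CPM (log2 change 0.46 ± 0.16, edgeR adjusted p = 0.284). Guide 1 of MLLT1 gave 99.5, 90.2 and 90.3 CPM and guide 2 gave 97.2, 64.9 and 91.7 CPM (0.59 ± 0.16, adjusted p = 0.0516). All 12 libraries lay above the highest control library, MLLT1 guide 2 replicate 2 by less than 1 CPM. Both knockouts are set against the same 3 control libraries. How many of all genes separate from the control in this way, here or for Adgre1, was not counted. For MLLT1 the value lay close to the threshold and passed in 8 of 31 alternatives, among them the DESeq2 test (adjusted p = 0.0282) and a fit with the replicate number as a block (0.0413), within a range of 0.0282 to 0.31. In the MLLT6 knockout it was at 52.4 to 69.6 CPM, overlapping the control (0.03 ± 0.16, adjusted p = 0.977). A direct test found Lyz2 higher in the MLLT1 than in the MLLT6 knockout (0.57 ± 0.13, adjusted p = 0.0112). Without both libraries that stood apart this was 0.49 (adjusted p = 0.051). In the order of mean levels DOT1L stood apart from MLLT1 guide 1, and MLLT10 guide 2 from MLLT6 guide 1, and other neighbours overlapped.

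Ratios of counts within a library do not depend on how libraries are scaled, and they show how far the genes moved apart. Lyz2 counts were 0.222 to 0.371 of the Adgre1 counts in the control and 67.1 to 83.3 times them in the DOT1L knockout. The ratio was 0.496 to 0.807 in the MLLT10 libraries, 0.662 to 0.831 in the MLLT1 libraries and 0.280 to 0.358 in the MLLT6 libraries. The MLLT10 and MLLT1 libraries thus lay above every control library and the MLLT6 libraries did not. The ratio of Adgre5 to Adgre1 ranged from 0.306 to 0.548 in the control and from 4.27 to 5.21 in the DOT1L knockout. It was 0.603 to 1.01 with MLLT10, 0.739 to 0.927 with MLLT1 and 0.371 to 0.554 with MLLT6. Both ratios share the Adgre1 counts, and Adgre5 itself overlapped the control with MLLT10 and with MLLT1. The ratios are therefore not evidence apart from the fall of Adgre1 there. Adgre5 had more counts than Adgre1 in all 3 DOT1L libraries and in 1 MLLT10 library, and fewer in the others. Per kilobase of exon, the control mean was 67.8 CPM for Adgre1, 44.7 for Lyz2 and 22.9 for Adgre5, and the DOT1L mean was 12.1, 2194 and 47.6. No test was made of these ratios, since the genes were chosen with their directions known.

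**Figure D3:**
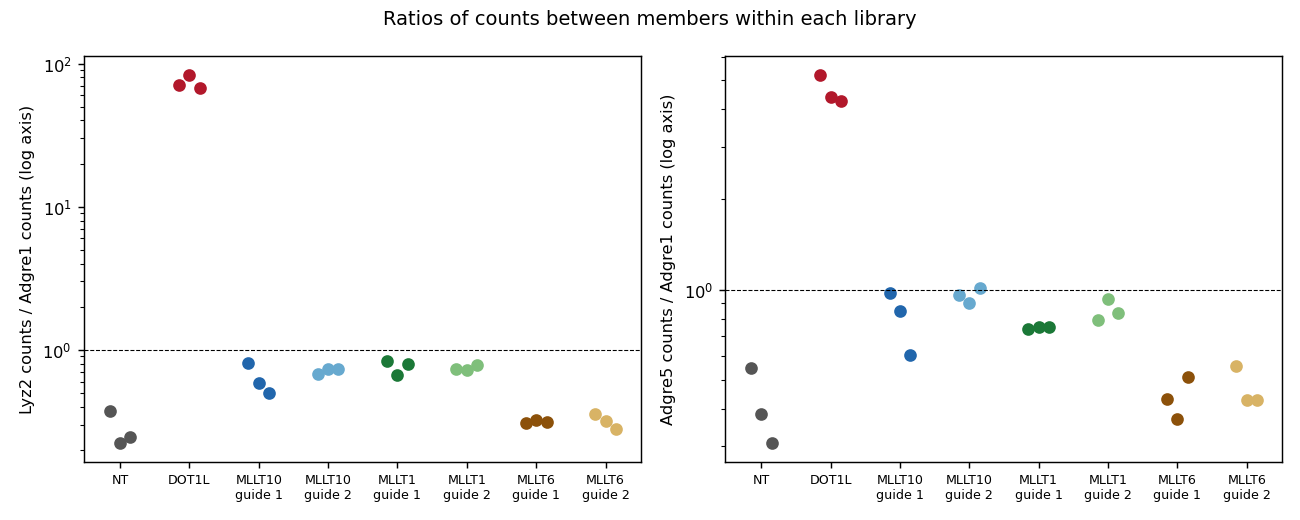
Counts of Lyz2 (left) and Adgre5 (right) divided by those of Adgre1 in each library (y axes, log), by group (x axes); the dashed line marks equal counts. The 3 DOT1L points lie at 67.1 to 83.3 (left) and 4.27 to 5.21 (right). MLLT10 and MLLT1 points lie above those of NT in both panels, which share the Adgre1 counts.

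Lyz1, which in mice is chiefly known from Paneth cells of the gut, had 41 counts in all 24 libraries against 39402 of Lyz2. The DOT1L libraries held 4, 6 and 21 counts of Lyz1, and no other library held more than 3. The control held 1 count in total, and the ratio of the DOT1L to the control level was 22.9 with an exact 95% interval of 3.81 to 931 that covers counting error only. Lyz1 stayed below the filter on low counts. With no filter, its log2 fold change in the DOT1L knockout against the control had an edgeR adjusted p of 0.0605. Against the MLLT10, MLLT1 and MLLT6 knockouts that p was 0.000526, 0.00205 and 0.000396. The share of Lyz1 among counts of both lysozyme genes was 0.0952% in the DOT1L knockout (exact 95% interval 0.0647% to 0.135%). It was 0.145% over the other 21 libraries (0.0696% to 0.267%), and the intervals overlap. The difference between the shares was not tested. Whether some Lyz1 counts are reads of the near-identical Lyz2 cannot be told apart in these counts.

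**Figure D4:**
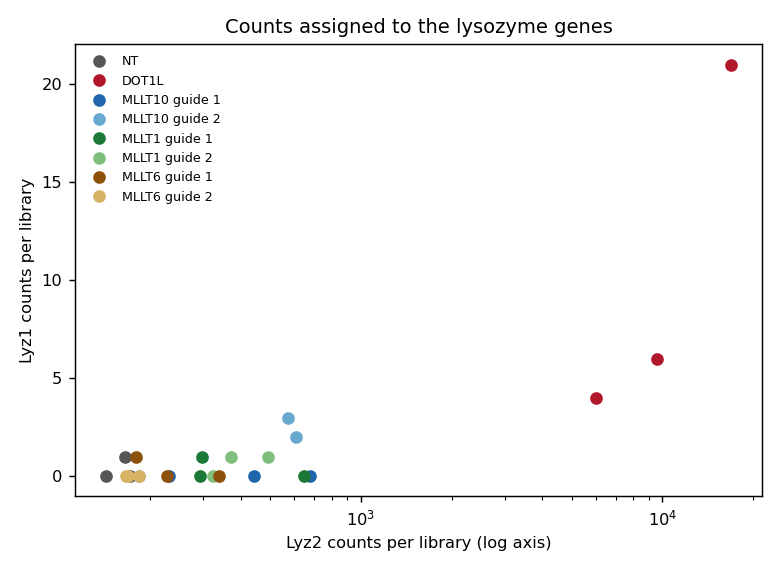
Counts assigned to Lyz1 (y axis) against counts assigned to Lyz2 (x axis, log) in each of the 24 libraries, coloured by group. The 3 DOT1L libraries, at 6039, 9578 and 16906 counts of Lyz2, hold 4, 6 and 21 counts of Lyz1, and the other libraries hold 0 to 3.

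The uptake receptors of mature macrophages were at or near 0 in every group. Msr1 (ENSMUSG00000025044, chromosome 8, 39581685 to 39642673) had no count in the control, 6 in the DOT1L, 3 in the MLLT10, 6 in the MLLT1 and 4 in the MLLT6 libraries. DOT1L replicate 1 had none, so the groups overlap. Mertk (ENSMUSG00000014361, chromosome 2, 128698956 to 128802894) had a single count in all libraries, in DOT1L replicate 3. Mrc1 (ENSMUSG00000026712, chromosome 2, 14229392 to 14332057) had 6 counts, 5 of them in MLLT10 libraries and 1 in an MLLT1 library, and none in the control or the DOT1L knockout. No count of 0 here excludes a level below the limit of its group, 0.366 CPM (NT), 0.27 (DOT1L), 0.0917 (MLLT10), 0.106 (MLLT1) or 0.14 (MLLT6). With no filter on low counts, none of these 3 genes passed against the control in any of the 4 knockouts. The rise of Lyz2 in the DOT1L knockout thus came without detectable Mrc1, with 1 count of Mertk and with 6 of Msr1.

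Cx3cr1 (ENSMUSG00000052336, chromosome 9, 119901616 to 120069879, minus strand) was low and variable. Its levels were 1.24, 2.81 and 1.17 CPM in the control and 5.94, 1.42 and 2.32 CPM in the DOT1L knockout. These are 3 to 9 counts a library in the control and 4 to 16 in the DOT1L knockout, and the groups overlap. It ranged from 1.84 to 6.28 CPM (median 3.0) in the MLLT10, from 2.23 to 6.73 (median 4.88) in the MLLT1 and from 1.47 to 5.55 (median 2.29) in the MLLT6 libraries. Every knockout mean lay above the control mean, and no difference passed. The largest was 1.38 ± 0.54 for MLLT1 (edgeR adjusted p = 0.195), and in 5 of the 6 MLLT1 libraries the level exceeded the highest control library. The filter asked for 3.12 CPM in enough libraries, a level that no control library reached, so Cx3cr1 entered the test through its knockout libraries. All neighbours in the order of mean levels overlapped. No difference in Cx3cr1 between the DOT1L and the other knockouts passed either.

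Both guides of a target were also compared with each other, and none of the 4 tested genes was called. No member had an unadjusted edgeR p under 0.05 between the guides of MLLT10, MLLT1 or MLLT6, and DESeq2 called none. Over all genes no guide pair had a called gene (0% each), with 182, 222 and 983 genes at an unadjusted p under 0.05 and with 0, 0 and 7 called by DESeq2.

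Genes with the most similar pattern were sought for Adgre1, Adgre5 and Lyz2 among 8572 genes of at least 5 CPM, by Pearson correlation of log2 CPM over the 24 libraries. The points share their groups, and the DOT1L libraries set much of each correlation. Among the closest to Adgre1 were Usp11, a deubiquitinase (r = 0.948), and Itgb7, the integrin beta 7 chain (0.939). Over the 21 libraries without DOT1L these were 0.851 and 0.756. Closest to Adgre5 were Cd24a, a surface glycoprotein (0.951), Actn1, an actin crosslinker (0.95), and Ccl6, a chemokine (0.933), with 0.786, 0.762 and 0.780 without DOT1L. Closest to Lyz2 were the cysteine protease inhibitors Stfa1 (0.983) and Stfa2 (0.974) and the granule protein Lcn2 (0.972), with 0.688, 0.712 and 0.807 without DOT1L. Between the members, Adgre1 and Lyz2 had r = -0.88 over 24 and -0.59 over 21 libraries, Adgre1 and Adgre5 -0.85 and -0.46, and Adgre5 and Lyz2 0.92 and 0.60.

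Other genes of the same biology were counted in the DOT1L knockout, where 21.8% of all genes were called. Of 8 tested adhesion G protein-coupled receptors 2 rose and 3 fell, Adgre5 and Adgre1 among them, with a median log2 fold change of -0.40 beside 0.01 over all genes. Adgrg1 (GPR56, known from haematopoietic stem cells) fell by 2.38 ± 0.24 (edgeR adjusted p = 7.55e-08) and Adgrg3 (a receptor of granulocytes) rose by 0.76 ± 0.18 (adjusted p = 0.00312). The third fall was that of Adgrl1 (-1.25 ± 0.39, adjusted p = 0.0223), named after its value was seen. Of 6 tested scavenger and endocytic receptors 1 fell, Stab2 (-2.16 ± 0.69, adjusted p = 0.0243), which did not pass without NT replicate 3 (-1.46, adjusted p = 0.202) or DOT1L replicate 3 (0.144) and was not called when only the groups compared were fitted. The median of that list was -0.11.

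Of 7 tested genes of dying-cell uptake, 2 rose and 3 fell, beside 21.8% of all genes called, with a median of -0.70. Cd300lf, an immunoreceptor that binds phospholipids, rose by 3.64 ± 0.40 (edgeR adjusted p = 3.58e-07) and Lrp1, an endocytic receptor, by 2.61 ± 0.59 (adjusted p = 0.00227), or by 3.29 without NT replicate 1. Lrp1 was at 11.4 to 13.4 CPM in the DOT1L libraries and at most 3.71 CPM elsewhere, so it entered the test through the DOT1L libraries. Mfge8, a bridge between dying cells and integrins, fell by 2.64 ± 0.37 (adjusted p = 1.16e-05), and the integrin chain Itgb5 fell by 2.07 ± 0.40 (adjusted p = 0.000503). The third fall was that of Itgav (-0.70 ± 0.22, adjusted p = 0.0211), named after its value was seen. Mertk's relative Axl had no count in the control and 11 in the DOT1L libraries, and Gas6, the ligand of Mertk and Axl, had none in either. Cx3cl1, the ligand of Cx3cr1, had no count in either group.

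In the DOT1L knockout, where 21.8% of all genes were called, 21 genes of the wider monocyte and macrophage list were tested. Of these 21, 13 rose and 1 fell, with a median log2 fold change of 1.04. Of those that rose, Cybb, Csf1r and Mpeg1 stayed below the filter's 3.12 CPM in every control library. They entered the test through knockout libraries, so the filter favours rises in this count. Itgam, the CD11b integrin, rose by 3.0 ± 0.33 (edgeR adjusted p = 3.2e-07), Vcam1, an adhesion molecule, by 2.97 ± 0.45 (adjusted p = 3.11e-05), and Sirpa, an inhibitory receptor of phagocytes, by 1.19 ± 0.19 (adjusted p = 4.62e-05). Cybb, a subunit of the phagocyte NADPH oxidase, went from 0 to 1.24 CPM in the control, 4 counts in all, to 618 to 763 CPM in the DOT1L libraries (log2 fold change 10.36 ± 0.44, adjusted p = 3.2e-14). Without NT replicate 1, Cybb rose by 11.71 and Vcam1 by 3.84. The fall was that of Ccr2 (-2.04 ± 0.42, adjusted p = 0.000822), the chemokine receptor of inflammatory monocytes, named after its value was seen. Of 14 tested factors of monocyte and macrophage development, 8 rose and 1 fell, with a median of 0.90. Cebpe, a factor of granulocyte maturation, rose by 1.34 ± 0.25 (adjusted p = 0.0003). Cebpd and Spi1 rose by 2.29 ± 0.26 and 1.38 ± 0.23, and Irf8 fell by 1.75 ± 0.26. In the list of ligands, Thbs1, the only one of 5 tested, rose by 1.43 ± 0.37 (adjusted p = 0.00619), and in the lysozyme family Lyz2 was the only one of 7 tested. Members and lists were chosen with earlier results known, and Itgam is also a marker of the leukaemia cells and of neutrophils.

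In the other knockouts fewer genes of these lists passed. In the MLLT10 knockout none of the 55 tested list genes other than the members passed edgeR's test, 8 had an unadjusted p under 0.05, and DESeq2 called 1. In the MLLT6 knockout none passed, 5 had an unadjusted p under 0.05, and DESeq2 called 0. In the MLLT1 knockout 3 rose and 1 fell of the 55, beside 2.58% of all genes called. There 19 of the 55 had an unadjusted p under 0.05, as did 1631 of all 10578 genes, and DESeq2 called 6. Cybb rose by 2.78 ± 0.60 (edgeR adjusted p = 0.011) from 4 counts in all control libraries, and its value was 4.14 without NT replicate 1. Tyrobp, a signalling adaptor, rose by 0.57 ± 0.15 (0.0478) and Cebpe by 0.83 ± 0.22 (0.0444), and Ccr2 fell by 1.37 ± 0.33 (0.0222). Cybb and Ccr2 did not pass without NT replicate 2 (0.127 and 0.163) or replicate 3 (0.103 and 0.171) or when only the groups compared were fitted (0.101 and 0.0615), and Ccr2 also not without MLLT1 guide 2 replicate 1 (0.0537). Tyrobp and Cebpe lay near the threshold, and without 1 library their adjusted p reached 0.176 and 0.296.

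Markers of other cell types were summed beside these results. The neutrophil markers ranged from 7141 to 9924 CPM in the MLLT10 libraries, 6478 to 6859 in the MLLT1 libraries and 6050 to 8206 in the MLLT6 libraries. Of the 18, 6, 8 and 0 were called higher and 0, 2 and 0 lower, beside 0.473%, 2.58% and 0% of all genes called. Fcnb and Ltf, called higher with MLLT10 and with MLLT1, stayed below the filter's 3.12 CPM in every control library. The filter thus favours rises in these counts too. Most of the control sum was Ctsg (4845 to 5277 CPM), so the sum hides rises of less abundant markers. In the MLLT1 knockout Ctsg (-0.83) and Prtn3 (-0.58) fell. Among the 8 called higher there, S100a8 rose by 3.24, S100a9 by 3.18 and Ltf by 4.21. Dendritic cell markers summed to 266 to 388 CPM in the control and 42.1 to 79.1 CPM in the DOT1L libraries, where 6 of 10 had no count, as did 4 of 10 in the control. Tcf4 and Flt3 were the only 2 tested, and both fell, beside 21.8% of all genes called there. Tcf4 and Flt3, at 170 to 213 and 85.3 to 171 CPM, held nearly all of the control sum. Flt3 is also among the markers of the leukaemia cells. Zbtb46, Cd209a, Batf3 and Xcr1 had no count in the control, so a change in dendritic cells cannot be read from this sum. Mast cell and basophil markers summed to 337 to 404 CPM in the control and 284 to 325 CPM in the DOT1L knockout. Most of the DOT1L sum was Hdc (175 to 195 CPM) and Kit (69.3 to 83.2 CPM). Of 6 tested, 0 were called higher and 3 lower there, beside 21.8% of all genes called: Cpa3 (-4.12), Gata2 (-2.33) and Mcpt8 (-1.59). Eosinophil markers summed to 3.30 to 8.13 and 30.9 to 46.0 CPM. Nearly all of the DOT1L sum was 1 gene, Siglecf (28.2 to 44.9 CPM), the only 1 called of 2 tested, beside the same 21.8%. There Epx had 3 counts, Ccr3 had 4 and Il5ra 0. Erythroid and megakaryocytic markers summed to 80.1 to 102 CPM in the control and 12.3 to 17.8 CPM in the DOT1L libraries. Most of that control sum was Hbb-bt, a beta globin (65.5 to 92.9 CPM, and 1.49 to 2.85 CPM in the DOT1L libraries). Of 3 tested in that list, 1 was called higher and 2 lower in the DOT1L knockout, again beside 21.8% of all genes called. Pf4, a platelet chemokine, rose by 2.97 ± 0.66 (edgeR adjusted p = 0.00169). Those called lower were Hbb-bt and Itga2b (log2 fold change of Itga2b -2.31 ± 0.79, edgeR adjusted p = 0.0385). The part of these cell types in the results for Adgre1, Adgre5 and Lyz2 was not tested.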

How the data were processed

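RNA was sequenced from 24 libraries, 3 in each of 8 groups. The authors deposited raw read counts per Ensembl gene, made with bcl2fastq, HISAT2 and HTSeq on mm10, per the submitters' processing notes, which also name DESeq2. Not given in the sources used here are their versions, the annotation and whether strand was used. Of 43629 gene identifiers, 42462 were given symbols by exact match to GENCODE M21. The count tables were tested with edgeR 4.0.16 in R 4.3.3: filterByExpr (minimum count 10, 10578 genes kept), TMM scaling, 1 quasi-likelihood fit over all 8 groups, and Benjamini-Hochberg adjustment over the genes tested, with calls at adjusted p under 0.05. Where a target had 2 guides, their mean was compared. The SE is the log2 fold change divided by the square root of F. Totals of 2403044 to 7415397 counts give coarse values for genes below a few CPM, and intervals and the limit of 3 counts cover counting error only. The steps were tested on simulated counts of the 4 comparisons with NT, with 50 genes changed at each size. Of 1.5-fold changes 8% to 22% were called, of 2-fold changes 46% to 62%, and of 4-fold changes 98% to 100%. A change of up to 2-fold that was not called is therefore not shown to be absent.

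Replicate numbers were checked for pairing by correlating deviations from group means. Same-numbered samples correlated above 0.1 for each MLLT10 guide with NT (lowest 0.268 and 0.107) and between these guides (0.244), taken as paired by that rule and not by a label. They did not for DOT1L (0.0696). For MLLT1 and MLLT6 guide 2 did (0.128 and 0.181) and guide 1 did not. No library was a repeat of another: between replicates chi-square per gene was at least 4.76.

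The members and gene lists were chosen with earlier results of these data known. All 8 members were named. For each of those with at least 5 CPM on average, the 3 genes with the highest correlation were named, skipping clone and predicted names, and for each list up to 4 called genes with the smallest adjusted p. Of the genes most like Adgre1, 1 is not reported here. Alternatives were DESeq2 size factors, the DESeq2 1.42.0 test, no filter on low counts, a replicate block, the compared groups alone, each library left out, and, chosen after seeing the data, both libraries that stood apart left out, with and without the block. Sequences came from GENCODE M21 and RefSeq (GRCm38.p6) and were aligned with Biopython 1.88.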

Additional observations from a re-analysis of the deposited data

How the results depend on the processing

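Over 31 alternatives, 1559 of 1610 values of the members kept direction and side of the threshold, 24 lost and 12 gained the call, and 15 changed sign. Many alternatives left out 1 library of a group outside the comparison, which enters only through the shared fit. Adgre1, Adgre5 and Lyz2 kept their calls in the DOT1L knockout in all 31. For MLLT10 against NT, the count of called members was 1, against 0 in the compared groups alone and 0 to 1 when a library was left out. All genes called there numbered 50, against 105 with the DESeq2 test, 192 with no filter, 79 with the replicate block, 28 in the compared groups alone, 15 to 61 without a library, 79 without both libraries that stood apart and 175 with those left out and the block. For MLLT1 against NT, 1 member was called, against 2 with the DESeq2 test, with no filter, with the replicate block and with both libraries left out plus the block, and 1 to 2 without a library. All genes called there numbered 273, against 463 with no filter, 457 with the replicate block, 97 in the compared groups alone, 781 with both libraries left out plus the block and 74 to 432 without a library. For MLLT6 against NT, 0 genes were called, against 80 with no filter. Called members were 1 for MLLT10 against MLLT6, and 0 to 1 without a library. They were 2 for MLLT1 against MLLT6, and 1 without both libraries that stood apart. The compared groups alone hold fewer samples. For the other changes the cause was not tested.

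Values that changed sign were small or imprecise and none was called. Without 1 library, Adgre5 in MLLT6 against NT ranged from -0.073 to 0.025, Lyz2 in MLLT6 against NT from -0.044 to 0.10, Lyz2 with MLLT6 guide 1 from -0.025 to 0.18 and with guide 2 from -0.090 to 0.055. Adgre1 in MLLT10 against MLLT1 ranged from -0.032 to 0.10, and Cx3cr1 in DOT1L against MLLT10 from -0.84 to 0.16 and against MLLT6 from -0.52 to 0.48. Adgre1 with MLLT10 guide 1 against NT passed with the DESeq2 test (adjusted p = 0.028) and without NT replicate 1 (0.0462). The numbers of 1 guide each of MLLT1 and MLLT6 (guide 2) also paired with NT by the rule used, and those of guide 1 did not. The replicate block changed 1 call of a member against NT, Lyz2 in MLLT1. Depth limits Lyz1, Msr1, Mertk, Mrc1 and Cx3cr1, whose groups hold few counts.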
